A study of Bos taurus with 6 samples.

Results

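The genes described here encode parts of the contractile apparatus of skeletal muscle, together with genes of muscle cell fusion and calcium release, in primary bovine myoblasts treated with resveratrol (RSV). Of a list of 41 such genes, 11 had an identifier paired with a gene name in the study's sheet of differentially expressed mRNAs, and these 11 are the members: MYH3, MYH7, MYL1, MYOM1, MYOM3, TNNT1, TNNI1, KLHL41, ACTN2, RYR1 and MYMK. That sheet names an mRNA only when it was called different between RSV and DMSO, so the members were chosen by their reads in the same contrast and their differences are given below as a description, without a test. The remaining 30 listed genes, among them the myogenic transcription factors MYOD1, MYF5, MYOG and MYF6, have no name in the sheet and were not analysed here. The members therefore hold sarcomere, calcium release and fusion genes but no myogenic transcription factor. In all, 20459 mRNAs had reads. The limma voom fit described below called 34.3% of 14996 mRNAs at an adjusted p under 0.05, by another method than the study's. The 11 of 41 listed genes with a name are therefore not read as more or fewer than among all mRNAs. The same holds for the counts of named genes in the lists below.

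The cells were myoblasts isolated from fetal beef longissimus dorsi muscle and kept in differentiation medium. The RSV group was 3 cultures that received 20 μM of RSV, a plant polyphenol, dissolved in DMSO for 4 days, and the DMSO group was 3 cultures that received the solvent alone. The cultures came from primary tissue, and whether they shared a fetus is not given in the sources used here, so the spread between them may be partly technical. RNA of the cells was sequenced for mRNA and for miRNA.

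When myoblasts leave the cell cycle they fuse into multinucleated myotubes and build sarcomeres, the repeating contractile units of muscle. Thick filaments of myosin heavy and light chains slide along thin filaments of actin, tropomyosin and troponin, the M-line ties the thick filaments together at the centre of the sarcomere, and the Z-disc anchors the thin filaments at its ends. Embryonic and slow isoforms of several of these proteins are made first during development, and the fast isoforms of adult muscle follow later. Calcium released from the sarcoplasmic reticulum starts each contraction by binding to troponin.

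For reads, the deposited table holds the mean over each group of normalized reads (reads divided by the size factor of their library) and no values of single libraries, and the reads of the single libraries were recovered from the digits of these means. Recovered reads summed to between 15544900 and 18264331 per library. Libraries are called A, B and C within each group by falling size factor, because the deposited table does not give their numbers in the sample labels. Per-sample values of the study's sheet, which might link them, were not used here. RSV library C stood apart from the other RSV libraries and was either the highest or the lowest of its group for most mRNAs (highest for 41.4% and lowest for 42.5%). Of 10 skeletal muscle markers 5 had a name, and ACTN2, CHRNG, MYH3, CACNA1S and RYR1 all had more normalized reads in every RSV than in every DMSO library, as did 26.8% of the mRNAs tested. These markers have a name only because the same contrast called them, and MYH3, ACTN2 and RYR1 are members, so their direction is no independent check of the cells.

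Of the 11 members, 10 were higher in RSV than in DMSO and 1, MYL1, was lower. The groups did not overlap for any of the 11 members, against 53.7% of the 14996 mRNAs tested, those whose mean reached 10 normalized reads (26.8% in each direction). Over these mRNAs the log2 fold change (log2FC, RSV minus DMSO, from limma voom) was above 0 for 50.2%, and limma voom called 34.3% at an adjusted p under 0.05, 16.6% higher and 17.7% lower. The count of members without overlap follows from how the members were chosen, and their directions were read in the same contrast. The median log2FC was 0.61 over the members and 0.0016 over all 14996 mRNAs. The 10 higher members had between 1.29 and 2.25 times as many normalized reads in RSV. Without RSV library C the median log2FC of the members was 0.57. The same number were higher, as had to be the case where groups do not overlap. In RNA from whole cultures, more cells expressing these genes and more of their RNA per cell cannot be told apart, nor, for MYL1, fewer cells and less RNA per cell.

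**Figure D1:**
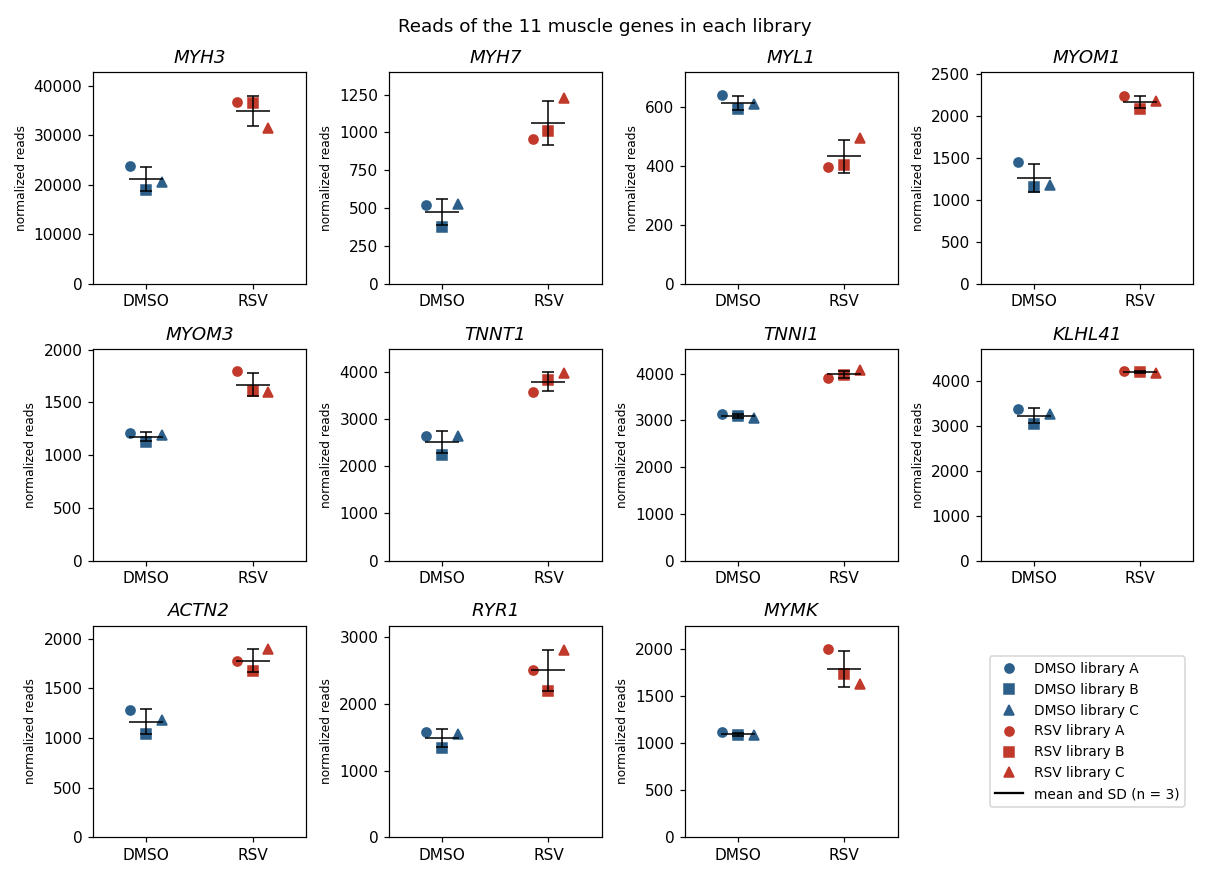
Normalized reads (y axis, from 0) of each of the 11 members in the 3 DMSO and 3 RSV libraries (points, shaped by library), with the mean and SD of each group as black bars. In 10 panels every RSV library lies above every DMSO library, and for MYL1 every RSV library lies below.

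Among the thick filament genes, MYH3 (ENSBTAG00000011803) encodes the embryonic myosin heavy chain, which developing and regenerating fibers use. It had 36810, 36577 and 31516 normalized reads in RSV libraries A, B and C, and 23856, 19021 and 20592 in DMSO libraries A, B and C. The lowest RSV library lay 7660 reads above the highest DMSO library. The means were 34968 ± 2991 (SD, n = 3) in RSV and 21157 ± 2467 (SD, n = 3) in DMSO, 1.65 times as many in RSV, with a log2FC of 0.73 (standard error 0.095). Its reads took 0.194% to 0.223% of all recovered reads with RSV against 0.107% to 0.137% with DMSO. The reads of MYH3 are the least certain of the members, since 0.185 combinations of reads were to be found by chance for its RSV mean and 0.0446 for its DMSO mean. Without MYH3 the median log2FC of the members was 0.61 as well.

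MYH7 (ENSBTAG00000009703), the slow myosin heavy chain of type I fibers and of the heart, had the largest log2FC of the 11 members. It had 957, 1009 and 1230.4 normalized reads with RSV against 519.9, 372 and 528 with DMSO. RSV library C and DMSO library B held the extremes. The means were 1065 ± 145 (SD, n = 3) and 473 ± 87.8 (SD, n = 3), 2.25 times as many in RSV, with a log2FC of 1.18 (standard error 0.15). The coefficient of variation of MYH7 was 13.6% in RSV and 18.5% in DMSO, the highest of the members in either group.

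MYL1 (ENSBTAG00000009707), the essential light chain of fast skeletal myosin, was the only member with fewer reads in RSV. It had 399, 404 and 497 normalized reads with RSV against 642, 595 and 613 with DMSO. RSV library C, the highest of its group, still lay below all DMSO libraries. The means were 433 ± 55.2 (SD, n = 3) and 617 ± 23.9 (SD, n = 3), 1.42 times as many in DMSO, with a log2FC of −0.52 (standard error 0.096). Some myosin heavy chain genes lie beside close copies of themselves. MYH8, MYH1, MYH2 and MYH3 lie in this order on 1 chromosome in the RefSeq annotation of ARS-UCD2.0. The neighbours of MYH7 and MYL1 were not checked. The tool that counted the mRNA reads is not given in the sources used here, so reads shared between paralogs may have been split.

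The M-line was represented by MYOM1 and MYOM3, myomesins that crosslink the thick filaments. MYOM1 (ENSBTAG00000019585) had 2235, 2089.5 and 2178 normalized reads with RSV against 1449.6, 1154 and 1172 with DMSO. Its log2FC was 0.79 (standard error 0.089), the second largest of the 11 members. MYOM3 (ENSBTAG00000014885) had 1793, 1611 and 1598 normalized reads with RSV against 1213, 1129 and 1187 with DMSO, with a log2FC of 0.50 (standard error 0.066). Both myomesins were thus higher in each RSV library, and DMSO library B was the lowest for both.

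The thin filament genes were the slow skeletal troponins TNNT1 and TNNI1 and KLHL41. Troponin T ties the troponin complex to tropomyosin and troponin I holds back the binding of myosin when calcium is low. TNNT1 (ENSBTAG00000006419) had 3587, 3835 and 3982 normalized reads with RSV against 2638, 2237 and 2654 with DMSO, with a log2FC of 0.60 (standard error 0.079). TNNI1 (ENSBTAG00000047231) had 3917, 3969 and 4071 with RSV against 3144, 3088 and 3055 with DMSO, with a log2FC of 0.36 (standard error 0.048). TNNI1 had the smallest difference and the smallest standard error of the members, and its 3 libraries lay close together in either group. KLHL41 (ENSBTAG00000010741), a kelch protein that stabilizes the thin filament protein nebulin, had 4233, 4215 and 4183 normalized reads with RSV against 3372, 3040 and 3276 with DMSO. Its log2FC was 0.38 (standard error 0.056), and its coefficient of variation in RSV, 0.604%, was the lowest of the members.

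At the Z-disc, ACTN2 (ENSBTAG00000009696) encodes the sarcomeric alpha-actinin that crosslinks the ends of the thin filaments. It had 1771, 1673 and 1895 normalized reads with RSV against 1281, 1037 and 1178 with DMSO, with means of 1780.0 ± 111 (SD, n = 3) and 1165 ± 122 (SD, n = 3) and a log2FC of 0.61 (standard error 0.086). RYR1 (ENSBTAG00000006999), the channel through which the sarcoplasmic reticulum releases calcium, had 2515, 2196 and 2810 normalized reads with RSV against 1578, 1340 and 1549 with DMSO. Its log2FC was 0.75 (standard error 0.10), and library B was the lowest of both groups. MYMK (ENSBTAG00000013242) encodes myomaker, a membrane protein that myoblasts need for fusion. It had 1998, 1733 and 1629.8 normalized reads with RSV against 1114, 1084 and 1084 with DMSO, with a log2FC of 0.70 (standard error 0.081). The DMSO libraries of MYMK were nearly equal, with a coefficient of variation of 1.61%, and the RSV libraries spread more, with 10.6%.

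**Figure D2:**
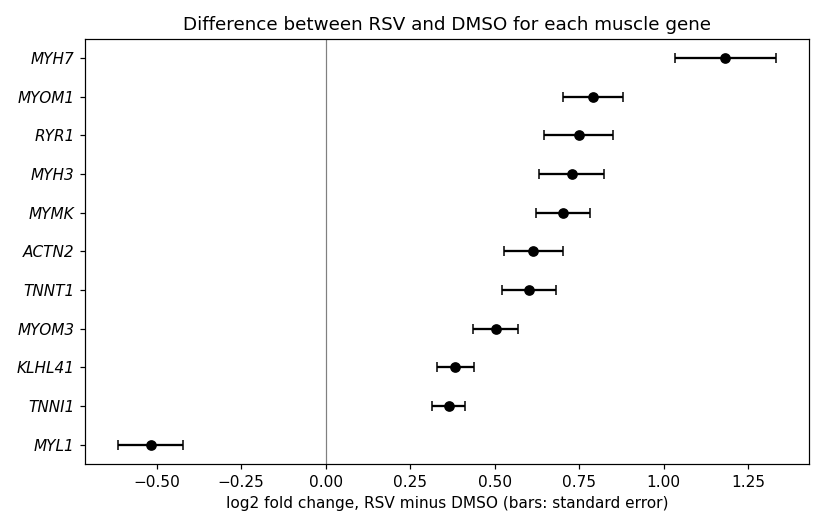
Log2 fold change (x axis, RSV minus DMSO) of each member with its standard error from limma voom as bars, ordered from the lowest to the highest. MYL1 lies at −0.52, the other members lie between 0.36 and 1.18, and MYH7 is the farthest to the right.

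The choice of members rested on the study's adjusted P-value, which is not given here. TNNI1 and KLHL41 had the smallest log2FC in absolute size, which does not place them near the threshold of that P-value. Listed genes just outside the threshold have no name, so their values are not given. Of the 10 higher members, 7 had a log2FC within 0.25 of 0.7, namely MYH3, MYOM1, MYOM3, TNNT1, ACTN2, RYR1 and MYMK. TNNI1 and KLHL41 lay below this window and MYH7 above it. The window was set for description and marks no clear gap at its lower end, as MYOM3 (0.50) lay between KLHL41 (0.38) and TNNT1 (0.60).

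How the members stood to each other inside a library was described by their normalized reads as a percent of those of MYH3. All these percents rest on the recovered reads of MYH3, the least certain of the members. MYL1 came to 1.08%, 1.11% and 1.58% of MYH3 in RSV libraries A, B and C, and to 2.69%, 3.13% and 2.98% in DMSO libraries A, B and C. MYL1 was thus 0.428 times as abundant relative to MYH3 in RSV as in DMSO. The groups could not overlap here, because every RSV library had more MYH3 and less MYL1 than every DMSO library. MYH7 came to 2.60% to 3.90% of MYH3 with RSV against 1.96% to 2.56% with DMSO. The groups lay next to each other without overlap, and RSV library C set the upper end.

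TNNI1, KLHL41 and MYOM3 were lower relative to MYH3 in RSV. TNNI1 came to 10.6% to 12.9% of MYH3 with RSV against 13.2% to 16.2% with DMSO, and KLHL41 to 11.5% to 13.3% with RSV against 14.1% to 15.98% with DMSO. MYOM3 came to 4.41% to 5.07% with RSV against 5.08% to 5.93% with DMSO, so that its groups were almost touching. For MYOM1, TNNT1, ACTN2, RYR1 and MYMK the groups overlapped, with mean ratios to MYH3 in RSV of 1.05, 0.920, 0.931, 1.03 and 0.981 times those in DMSO. These ratios compare the same pair of genes between libraries and say nothing of the levels of different proteins.

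**Figure D3:**
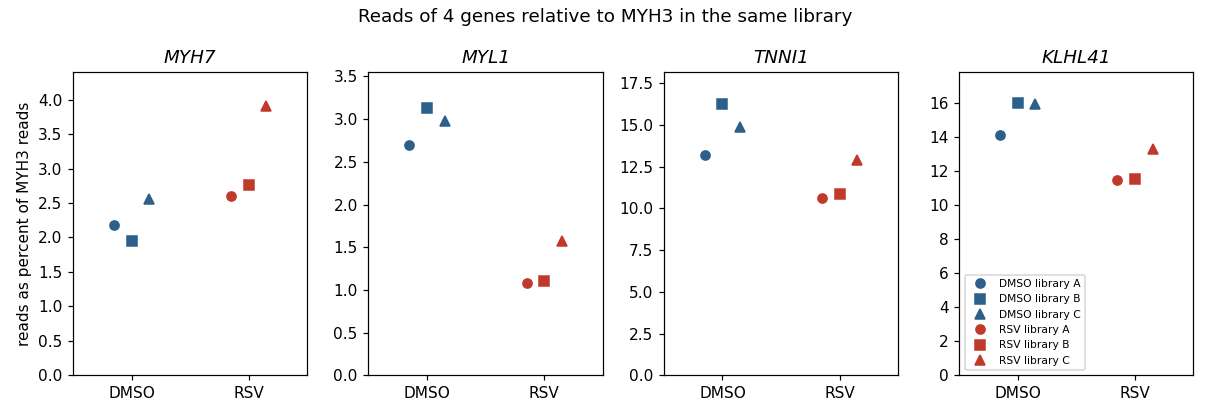
Normalized reads of MYH7, MYL1, TNNI1 and KLHL41 as a percent of those of MYH3 in the same library (y axis, from 0), for the 3 DMSO and 3 RSV libraries. MYL1 lies between 2.69% and 3.13% in DMSO and between 1.08% and 1.58% in RSV, TNNI1 and KLHL41 are also lower in RSV, and MYH7 is higher.

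The order of the libraries inside a group was not used to choose the members. In the DMSO group, library B was the lowest for 10 of the 11 members and library A the highest for 9. Over all mRNAs tested, library B was the lowest for 32.8% and library A the highest for 32.8%. The members lay at a median of −0.13 in library B, 0.072 in library A and 0.013 in library C on the log2 scale relative to the mean of their group, and the members together took 0.235%, 0.192% and 0.210% of the reads of DMSO libraries A, B and C. TNNI1 was the exception, lowest in library C. Members share each library, so that these counts describe 3 libraries and not 11 independent genes.

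In the RSV group the members took no common order. Library C was the highest for 6 members (MYH7, MYL1, TNNT1, TNNI1, ACTN2 and RYR1) and the lowest for 4 (MYH3, MYOM3, KLHL41 and MYMK), and library A was the highest for the other 5. Relative to the mean of the group on the log2 scale, MYH7 lay at 0.21, MYL1 at 0.20 and RYR1 at 0.16 in RSV library C, and MYH3 lay at −0.15 and MYMK at −0.13. Embryonic and slow myosin heavy chain thus stood on opposite sides of their group means in that library. For MYH3 this rests on the least certain reads of the members, with 0.185 combinations to be found by chance for its RSV mean.

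**Figure D4:**
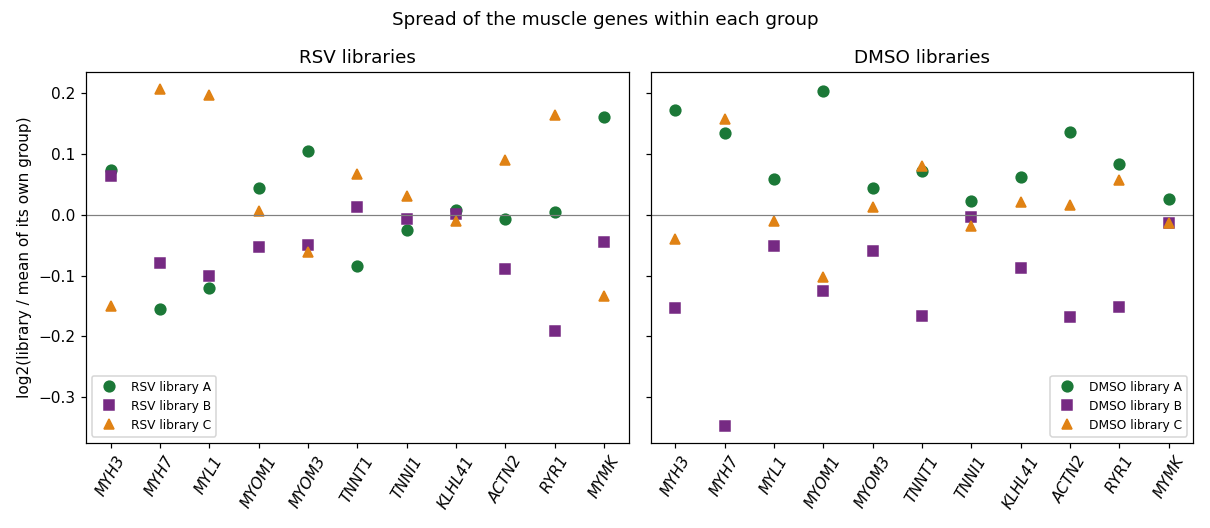
Each member in each library as the log2 ratio to the mean of its own group (y axis), for RSV libraries on the left and DMSO libraries on the right. In DMSO, library B lies below 0 for all members, while in RSV library C lies above 0 for some members and below 0 for others.

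Over all 6 libraries, KLHL41 (Pearson's r = 0.98), MYOM1 (0.98) and MYOM3 (0.97) had the log2 normalized reads most like those of MYH3, and MYL1 had the most unlike (−0.92). The libraries form 2 groups, so these values mainly repeat the difference between RSV and DMSO. After the mean of each group was removed, r with MYH3 was 0.79 for KLHL41, 0.72 for MYOM1, 0.67 for MYOM3 and 0.57 for MYMK, and lay between −0.34 and 0.39 for the other members. All are descriptions over 6 libraries whose points share depth and treatment, and all use the reads of MYH3, the least certain of the members.

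Of 131 further muscle genes listed by role, 40 had a name, again because the same contrast had called them, and 21 were higher and 19 lower in RSV. These counts were the same without RSV library C, as they had to be where groups do not overlap. The groups did not overlap for any of the 40, against 53.7% of all mRNAs tested, a count that follows from how these genes came to have a name. Among 5 named genes of excitation-contraction coupling, the step from the membrane signal to calcium release, 4 were higher beside RYR1. CACNA1S, the voltage sensor that opens RYR1, had a log2FC of 0.77 (standard error 0.10), ATP2A1, the calcium pump of fast fibers, 0.66 (0.085), HRC, a calcium-binding protein of the reticulum, 0.89 (0.13), and STAC2, an adaptor of the calcium channel, 0.95 (0.23). The lower gene was ATP2A2, the pump of slow fibers and of other cell types, with a log2FC of −0.41 (0.076), which was named after its value was seen.

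Of 4 named genes of the neuromuscular junction, 3 were higher. CHRNB1 and CHRNG, subunits of the acetylcholine receptor of which CHRNG belongs to the fetal form, had log2FC values of 0.72 (0.077) and 0.43 (0.070), and MUSK, the kinase that clusters the receptor, 0.63 (0.10). DOK7, the activator of MUSK, was lower, with a log2FC of −0.66 (0.10). Library B was the lowest of the DMSO group for all 4 of these genes and for 3 of the 5 named genes of excitation-contraction coupling, against 32.8% of all mRNAs tested. In the lists that follow it was the lowest for 7 of 13 genes of the sarcomere and its anchoring, 2 of 10 of myogenic control and fusion, 3 of 6 of the dystrophin complex and 0 of 2 of metabolism.

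Other genes of the sarcomere and its anchoring split, with 6 higher and 7 lower of 13 named. The 4 with the largest differences were all lower: HSPB7, a small heat shock protein of muscle, with a log2FC of −1.89 (0.19), MYLK3, a kinase of the myosin light chain, with −1.85 (0.48), ANKRD2, a stretch-responsive ankyrin repeat protein, with −1.57 (0.18), and CSRP3, a LIM protein of the Z-disc, with −1.08 (0.18). MYLK3 had only 21.1, 33.2 and 5.69 normalized reads with RSV against 59.1, 57.3 and 62.1 with DMSO. The 6 higher genes, named after their values were seen, were SYNM, PDLIM3, MYO18B, FLNC, TNNT2 and SYNC, with log2FC values between 0.52 and 0.86. The remaining lower genes, also named after their values were seen, were PDLIM7 with −0.73 (0.19), PDLIM5 with −0.58 (0.12) and TPM1 with −0.38 (0.083). Named genes of the sarcomere and its anchoring outside the members were therefore not uniformly higher in RSV.

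Of 10 named genes of myogenic control and fusion, 5 were higher and 5 lower. MET, the receptor of hepatocyte growth factor on muscle precursors, had 324, 321 and 453 normalized reads with RSV against 120.4, 123 and 123 with DMSO, with a log2FC of 1.56 (0.19), and HEY2, a Notch target, had a log2FC of 1.18 (0.20). MSC, a repressor of the E-box genes that MYOD1 activates, had a log2FC of −0.86 (0.20), and EYA2, a transcriptional coactivator, −0.63 (0.13). In the dystrophin complex 2 of 6 named genes were higher and 4 lower, with SGCD at −0.95 (0.19), SGCB at 0.69 (0.048), UTRN at −0.65 (0.12) and LAMA2 at −0.60 (0.062). The metabolic genes CKB, a creatine kinase, and FABP3, a fatty acid carrier, had log2FC values of 0.70 (0.12) and −0.57 (0.064).

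The markers of fibroblasts and smooth muscle that had a name and recovered reads were lower in RSV, where most members were higher. Of 7 fibroblast markers, 4 had a name and recovered reads in both groups (THY1, PDGFRA, DCN and LUM), all lower in RSV, and their reads summed to 59256 to 68750 with RSV against 95396 to 96641 with DMSO. Of 6 smooth muscle markers, 3 did so (ACTG2, LMOD1 and CNN1), also all lower, with sums 3876 to 10184 with RSV against 14996 to 16810 with DMSO. These markers too have a name only through the same contrast. None of the 7 was at 0 in any library. In the fibroblast sums the recovered reads of THY1 and DCN are uncertain, with 0.0770 to 0.117 combinations to be found by chance. COL3A1 and ACTA2 had a name too but no reads in the fit, so their direction is not given here. The listed markers COL1A1, COL1A2, TAGLN and MYH11 had no name. Of 5 adipocyte and 4 endothelial markers 0 had a name. The part of other cell types in the higher reads of the members was not tested.

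The miRNA libraries gave a readout that the choice of members did not use. The slow myosin genes carry miRNAs in their introns, bta-miR-208b in MYH7 and bta-miR-499 in MYH7B, and in the RefSeq annotation of ARS-UCD2.0 both miRNA genes lie within these host genes. The letters of the miRNA libraries are not those of the mRNA libraries. For bta-miR-208b libraries A, B and C held 53, 38 and 26 recovered reads with RSV against 34, 24 and 23 with DMSO. Normalized, they came to 34.4, 29.4 and 27.8 with RSV against 36.9, 29.1 and 31.6 with DMSO, so that the groups overlapped. The means were 30.5 ± 3.44 (SD, n = 3) and 32.5 ± 3.96 (SD, n = 3), and a two-sided exact permutation test gave p = 0.6. The mean in RSV was 0.938 times that in DMSO. With 3 against 3 libraries the smallest p is 0.1, so this test could not pass 0.05, and the overlap does not show that the groups were alike.

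bta-miR-499 had 91.5, 162 and 89.8 normalized reads with RSV against 41.2, 44.9 and 52.1 with DMSO. All RSV libraries lay above all DMSO libraries, with 2.48 times as many reads in RSV, and the two-sided exact permutation test gave p = 0.1, the smallest it can give. RSV library B, at 162, raised the RSV mean. The share of all miRNAs whose groups do not overlap was not computed, so whether bta-miR-499 stands apart from other miRNAs is not known. The host gene MYH7B had no name and was not analysed here. bta-miR-486 had 558 ± 75.7 (SD, n = 3) normalized reads in RSV and 572 ± 27.0 (SD, n = 3) in DMSO, with p = 0.8 in the same exact permutation test, and the groups overlapped. Its reads are uncertain, since 0.196 combinations were to be found by chance. Of the muscle miRNAs with more reads, whose single libraries were not recovered, the authors' means in RSV and DMSO were 28912 and 30883 for bta-miR-1, 7817 and 7453 for bta-miR-133a, 5687 and 5550.3 for bta-miR-133b, and 127629 and 139464 for bta-miR-206. No spread can be given for these 4 miRNAs.

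**Figure D5:**
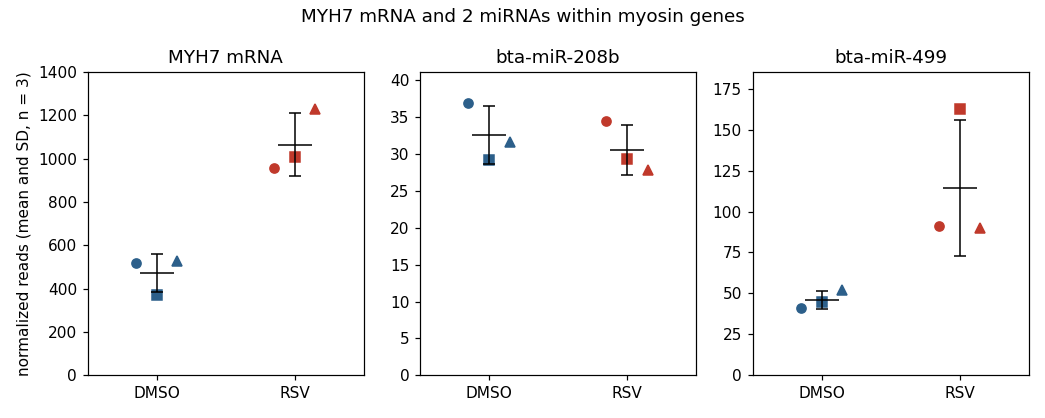
Normalized reads (y axis, from 0) of MYH7 mRNA, bta-miR-208b and bta-miR-499 in the 3 DMSO and 3 RSV libraries of each assay (points), with the mean and SD as black bars. MYH7 mRNA and bta-miR-499 are higher in all RSV libraries, and bta-miR-208b overlaps between the groups at 27.8 to 36.9 normalized reads.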

How the data were processed

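RNA of 3 RSV and 3 DMSO cultures was sequenced for mRNA and miRNA. The authors mapped miRNA reads to bosTau8 with Bowtie 0.12.9 (submitters' processing notes) and compared the groups with DESeq. The aligner and counter of mRNA reads are not given in the sources used here. The deposited values are, per the file headers, group means of read counts, and the authors divided reads by size factors. Further columns hold the authors' fold changes and P-values, which were not used. Most mRNA means had lost their decimal point.

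A mean is a sum of 3 whole reads over size factors. All combinations were tried for means up to 2000, and above that those within 50% of the mean, or 30% for means of 10000 or more. Where none was found, all were tried for means below 10000, and those within 60% for larger means. These limits were set after seeing the data. Of 20459 mRNAs with reads, 20428 had 1 combination in each group, 18 none and 15 several. Size factors recomputed from the recovered reads differed by at most 0.0403%. Of 600 simulated RSV means 599 were returned rightly. limma 3.58.1 (voom, R 4.3.3) was fitted to 14996 mRNAs with a mean of at least 10, with Benjamini-Hochberg adjustment. In simulated reads of these it called 176 of 200 changed genes and 10 of 14722 others. Other steps used Python 3.11.15, numpy 2.4.6, pandas 2.3.3, scipy 1.17.1, numba 0.67.0 and matplotlib 3.10.9.

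Gene names came from the study's sheet of differentially expressed mRNAs, and 0 deposited identifiers were found in the RefSeq table of ARS-UCD2.0. The members and lists were chosen with earlier results of these data known. Named were all members, the 4 further genes with the largest absolute log2FC in each role group, and the listed muscle miRNAs. Alternatives were other scalings, no minimum, the ratio of means, and each library left out.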

Additional observations from a re-analysis of the deposited data

How the results depend on the processing

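All 11 members kept their direction under the 10 alternatives tried for each. Leaving out a library or taking the ratio of means could not reverse a direction, since the groups did not overlap for any member. Of the 110 values under these alternatives, 105 moved by less than 1 SD between replicates. The other 5 were MYOM3 (0.59), TNNI1 (0.45) and KLHL41 (0.47) with library sizes set by the sum of recovered reads, and TNNI1 (0.46) and KLHL41 (0.49) with quantile normalization in voom. The median log2FC of the members stayed between 0.53 and 0.70, and 10 were higher each time. The summed library sizes moved the median of all mRNAs to 0.088. Leaving out libraries in turn, limma voom called between 2599 and 6393 mRNAs at an adjusted p under 0.05, against 5145 (34.3%) with all libraries. It called 2769, 2821 and 2599 without DMSO library A, B and C, and 3607, 5641 and 6393 without RSV library A, B and C. The cause was not tested. The log2 ratio of bta-miR-208b, −0.092, turned to 0.53 in raw reads without scaling, as the RSV libraries had the larger size factors, and lay between −0.19 and 0.0079 when libraries were left out, above 0 only without DMSO library A. No paired analysis was possible because the recovered libraries carry no replicate number in the deposited table, and per-sample values of the study's sheet, which might link them, were not used here. Depth limits bta-miR-208b, with at most 53 reads in a library.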
